A study of Mus musculus with 6 samples.

Results

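Day 3 embryoid bodies, cell aggregates formed by differentiating embryonic stem cells, were compared with day 0 mouse embryonic stem cells at RNA G-quadruplex sites, with 2 libraries per day. A site entered when its K+ and Li+ coverage together reached 20 reads in at least 2 of the 4 files. Of 5538 listed sites, 3308 did so, in 1634 of 2643 gene entries. The second-highest summed coverage lay between 20 and 22 reads at 159 sites just inside this limit, and between 17 and 19 reads at 223 sites just outside it. Both days came from the same clonal TsixTST/+ line of 129S1/CastEiJ x 129S1 background, labelled as WT in genotype and as untreated. Day 3 cells had been freed of feeder cells and grown in suspension without leukemia inhibitory factor. Day 0 cells were grown on inactivated feeders with it. The line is 1 clone, every library carries the TsixTST allele, and nothing in the labels says that the replicates came from separate cultures, so the p-values cover the spread between the deposited libraries, which may be technical. The day 3 cells are labelled as differentiated stem cells and their suspension growth comes from the culture protocol.

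A G-quadruplex is a 4-stranded fold of guanine-rich RNA in which guanines pair in stacked planes around a potassium ion. It can block reverse transcriptase, so that cDNA ends beside the motif. Lithium does not hold the fold together. Dimethyl sulfate (DMS), given to the living cells, methylates guanines that no fold protects, and a methylated motif can no longer fold in the tube. A motif that was folded in the cell is therefore expected to stop the enzyme more often in K+ than in Li+. The RNA was polyadenylated and bound to chromatin. On leaving the naive state, embryonic stem cells are known to pass through a formative state marked by Otx2, Fgf5 and the de novo DNA methyltransferases before the germ layers appear.

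Motifs that the comparison turned on are printed as deposited, 5′ to 3′ on the transcribed strand, with the runs of guanines in capitals. Runs of 3 or more are capitalised, or of 2 or more in motifs with fewer than 4 runs of 3. Coordinates are those of the mm10 (GRCm38) build. The first 5 had more K+ stops in day 3 libraries, the next 3 had among the larger changes of the K+ stop share, and the last 3 had less RNA or fewer stops. None of these passed a test.
Malat1, noncoding, bulged, chr19:5800312-5800329, minus strand: GGGaGGagtGGGtGGGGG
Mirg, noncoding, long loop, chr12:109749356-109749384, plus strand: GGGGactgagcaGGGaGGGGaaggaGGGG
Sox2ot;Sox2, 3′ UTR or noncoding, canonical, chr3:34651636-34651656, plus strand: GGGcggcGGGGaGGGcGGGGG
Slc16a3, 3′ UTR, bulged, chr11:120958277-120958297, plus strand: GGGGagaGGtGGcGGGGtGGG
Lsm14b, 3′ UTR, canonical, chr2:180034800-180034821, plus strand: GGGcaGGGacaGGGtGGGGGGG
Srebf2, 3′ UTR, canonical, chr15:82204575-82204602, plus strand: GGGGaggtGGGtGGGaGGGaggcaGGGG
Tubb5, 3′ UTR, 2-quartet, chr17:35834172-35834196, minus strand: GGagagatGGGGGttGGGGGtgcGG
Ncapd2, coding, bulged, chr6:125171896-125171924, minus strand: GGaGGaagaactGGGGctGGtGGGGGGGG
Tmsb4x, 3′ UTR, 2-quartet, chrX:167207249-167207271, minus strand: GGtgaaGGaaaaagctGGGtGGG
Fam25c, coding, bulged, chr14:34353725-34353752, minus strand: gtGGaagaGGtGGtgagcgaGGtGGtGG
Sdhc, 3′ UTR, bulged, chr1:171129387-171129409, minus strand: gaGGagagaGGtGGaGGaGGaGG
The Sox2ot;Sox2, Lsm14b and Srebf2 motifs hold at least 4 runs of 3 or more guanines with short loops. The Sdhc and Fam25c motifs are built of runs of 2.

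The libraries differed in depth and stood apart in their cation balance, and each result below carries the values that touch it. Outside the ribosomal RNA entries CT010467.1 and Gm15564 and the mitochondrial genome, which took 75.0% to 83.5% of all listed reads, K+ coverage summed to 87479 and 187298 reads in day 3 replicates 1 and 2, against 479785 and 143616 reads in day 0 replicates 1 and 2. Li+ coverage summed to 423917 and 94677 reads on day 3, against 299533 and 152113 on day 0. Day 3 replicate 1 thus drew 82.9% of its reads from the Li+ reaction, and the other 3 libraries 33.6% to 51.4%. Day 0 replicate 2 stopped more often in Li+ than in K+ at most sites, which is the opposite of the assay's design. Whether its cation columns were exchanged was not tested, and the results with them exchanged are given below. The log2 coverage of day 3 replicate 1 correlated more with day 0 replicate 1 (r = 0.90 across 3308 sites) than with day 3 replicate 2 (r = 0.79), and the day 0 replicates correlated at 0.75. Of 10 markers of pluripotent cells, 6 had a site, and their summed level was 12446 and 12312 CPM on day 3 (K+ plus Li+ reads per 1000000 scaled reads outside the left-out genes), against 12215 and 9624 on day 0. Of 10 markers of feeder fibroblasts only Col1a1 had a site, and it was listed at 0 in all 4 files. Of 7 primitive streak markers 2 had a site, T at 0 in all files and Fgf8 listed only on day 3. The 4 neural markers with a site summed to 96.6 and 97.0 on day 3, against 193 and 433 on day 0, and only 1 of the 4 met the coverage limit. None of 7 markers of extraembryonic endoderm had a site. The label of a stem cell culture on day 0 could therefore be checked for pluripotency markers, and the fibroblast marker list was nearly unmeasured.

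The amount of RNA at each site, given in CPM as above, was higher in day 3 libraries at sites of Ddit4, Dnmt3b, Peg10 and Hnrnpa1 and lower at sites of Tmsb4x, Fam25c, Zfp57 and Epop, but no site passed the test. With limma-voom and Benjamini-Hochberg adjustment over 3308 sites, 0 sites (0.0%) were called at an adjusted p under 0.05, and 222 sites had an unadjusted p under 0.05, which is 6.71% of those tested. Day 3 libraries lay above both day 0 libraries at 630 sites, 19.0%, and below both at 579 sites, 17.5%. The median log2 change was 0.02. In bulk RNA, fewer cells of a type and less RNA per cell cannot be told apart.

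Ddit4 encodes an inhibitor of mTORC1 that is induced by hypoxia, energy stress and glucocorticoids. Its site nearest to the threshold, in the 3′ UTR, had 576 and 736 CPM in day 3 libraries, against 89.4 and 213 in day 0 libraries, a log2 change of 2.55 ± 0.37 (SE, n = 2 each; limma-voom adjusted p = 0.0664). At all 12 Ddit4 sites tested, in the 3′ UTR and the 5′ UTR, both day 3 libraries were above both day 0 libraries, with log2 changes between 1.92 and 4.46, although many of these motifs overlap and share reads. The site was called when both cations were given equal weight (limma-voom adjusted p = 0.0323), a setting added after seeing the data. It was also called when only the 4 libraries of these days were fitted (0.0333), from K+ coverage alone (0.0435) and with 20 reads in all 4 files (0.0124). It was not called from Li+ coverage alone (0.290), without the filter (0.0892), by median-ratio factors (0.0663) or by library totals (0.0908). With 1 library left out, its log2 change lay between 1.60 and 2.87.

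Dnmt3b, a de novo DNA methyltransferase, had 338 and 542 CPM in day 3 libraries, against 139 and 66.3 in day 0 libraries (log2 change 1.71 ± 0.38, adjusted p = 0.214 by limma-voom). Peg10, a paternally expressed gene derived from a retrotransposon, had 1500 and 1204 on day 3, against 608 and 272 on day 0 (1.67, adjusted p = 0.279). In both genes the day 3 values did not overlap those of day 0. Sdc4, a heparan sulfate proteoglycan of the cell surface, had 401 and 274 on day 3, against 93.2 and 161 on day 0. Hnrnpa1, an RNA-binding splicing regulator, had 866 and 609 on day 3, against 282 and 188 on day 0. Srsf6, another splicing factor, had 210 and 154 on day 3, against 58.7 and 62.8 on day 0. The same order held for the receptor Notch3, for Pdzd4, for the exchange factor Fgd1 and for Cbx1, a heterochromatin protein, whose log2 changes lay between 1.00 and 1.58.

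Among sites with less RNA on day 3, Fam25c had 177 and 154 CPM in day 3 libraries, against 627 and 824 in day 0 libraries (log2 change -2.08 ± 0.26, adjusted p = 0.0613 by limma-voom). Tmsb4x, which encodes the actin-sequestering peptide thymosin beta 4, had 1466 and 1378 on day 3, against 4542 and 6793 on day 0 (-1.96 ± 0.28, adjusted p = 0.0664). Both day 3 libraries of both genes were below both day 0 libraries. Zfp57, a zinc finger protein that protects imprints, had 444 and 328 on day 3, against 1043 and 1190 on day 0 (-1.52, adjusted p = 0.106). Epop, a subunit associated with Polycomb repressive complex 2, had 1089 and 1111 on day 3, against 2298 and 4712 on day 0 (-1.57, adjusted p = 0.214). Hspg2, the basement membrane proteoglycan perlecan, had 188 and 157 on day 3, against 429 and 471 on day 0. Rmrp, the RNA of ribonuclease MRP, had 1297 and 1054 on day 3, against 2129 and 2887 on day 0. Day 3 values were below both day 0 values at each of these sites and at those of Cmtm7, Senp3, Map1lc3a and the ribosomal RNA entry CT010467.1. Without day 0 replicate 1, 115 sites in 75 genes were called, 38 higher and 77 lower, and Fam25c, Tmsb4x, Epop and Peg10 were among them. Without day 0 replicate 2, 2 sites were called, both in Ddit4, and leaving out either day 3 library gave 0.

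**Figure D1:**
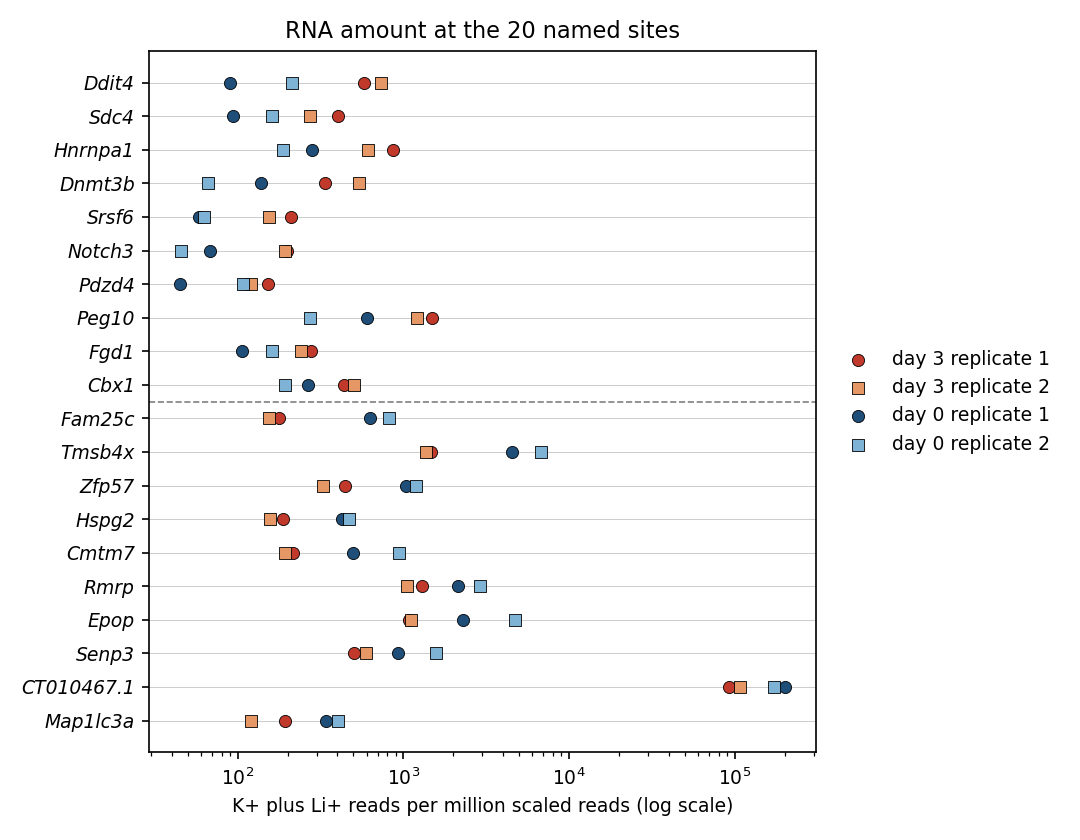
RNA amount at the 20 sites nearest to the threshold (CPM of K+ plus Li+ reads, log axis), 1 site per gene, with higher sites above the dashed line and lower sites under it. Each point is 1 library, and in every row both day 3 libraries lie on the same side of both day 0 libraries, though no site passed the test.

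Genes of the formative and primitive streak list leaned upwards, while pluripotency genes were mixed. Of 14 tested sites in 10 genes of the formative and primitive streak list, 0 passed, 11 had a positive change, 10 had both day 3 libraries above both day 0 libraries and none the reverse, with a median log2 change of 1.72. Over all 3308 sites 51.5% were positive, 19.0% lay above and 17.5% below both day 0 libraries, and the median was 0.02. The Fgf8 site and 1 of Pou3f1 met the 20-read limit through the day 3 files alone, so that their difference follows from the limit, and of the other 12 sites 9 were positive and 8 lay above (median 1.46). Dnmt3a, the other de novo methyltransferase, had 178 and 211 CPM in day 3 libraries, against 49.8 and 20.9 in day 0 libraries (2.09 ± 0.81, adjusted p = 0.631). Otx2, a transcription factor of the formative state, had 108 and 161 CPM on day 3, against 49.8 and 0 on day 0 (2.93 ± 2.18, adjusted p = 0.901). Day 3 libraries were above day 0 libraries in both genes, with a wide error. Fgf8, a growth factor of the streak, had 46.5 and 110 on day 3 and was listed at 0 in both day 0 libraries, at least 3.29-fold higher against a floor of 10 reads per library, which is a description only. Of 44 sites in 17 genes of the naive and general pluripotency list, 0 passed, 25 were positive, 9 lay above and 11 below both day 0 libraries, and the median was 0.11. Through the day 0 files alone 5 of these sites met the limit, those of Tbx3 and Socs3 among them, and the other 39 had 9 above and 7 below (median 0.15). Pou5f1, the core pluripotency factor OCT4, had 3057 and 3255 on day 3, against 3200 and 3180 on day 0 (-0.02 ± 0.36, adjusted p = 0.996), and its sign turned under 7 of the alternative settings. Tbx3, a factor of the naive state, had 26.0 and 0 on day 3, against 232 and 182 on day 0 (-4.98 ± 2.96). Socs3, a feedback inhibitor that the factor LIF induces, had 22.3 and 0 on day 3, against 158 and 126 on day 0. The values of Tbx3 and Socs3 are a description, since only sites high on day 0 could enter in this way. Dnmt3a, Otx2, Fgf8, Tbx3 and Socs3, and H19 and Peg3 below, were named after their values were seen.

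Sites of imprinted genes and long noncoding RNAs mostly had positive changes, none past the test. Of 22 imprinted sites in 8 genes, 0 passed, 21 were positive and 19 lay above both day 0 libraries, with a median of 2.75 over sites but 0.67 over genes, because 12 of the sites belong to H19. Through the day 3 files alone 9 of the H19 sites met the limit, and of the other 13 imprinted sites 12 were positive and 10 lay above (median 1.60). The most-read H19 site had 680 and 455 CPM in day 3 libraries, against 56.2 and 0 in day 0 libraries (4.94 ± 3.79). The imprinted zinc finger gene Peg3 had 314 and 478 on day 3, against 179 and 48.9 on day 0. Of 44 sites in 8 nuclear long noncoding RNAs, 0 passed and 40 were positive, with 14 above and 1 below both day 0 libraries and a median of 0.53. Without the 9 H19 sites and the Xist site that met the limit through day 3 alone, 4 of 34 lay above and 1 below (median 0.40), against 19.0% above and 17.5% below over all sites. Xist, the RNA that silences an X chromosome in female cells, had 91.1 and 151 on day 3 and no listed reads on day 0, at least 5.07-fold higher against the floor. This too is a description, as the site could enter only through day 3. Malat1, an abundant RNA of nuclear speckles, had a median log2 change of 0.27 over its 12 sites, 10 of them positive.

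None of the remaining lists had a site past the test. Over all 3308 sites 19.0% lay above and 17.5% below both day 0 libraries, with a median of 0.02. The 29 sites of the mTORC1, hypoxia and stress list had a median of 0.35 over sites and -0.03 over its 9 genes, since Ddit4 supplies 12 of them. Of the 29 sites, 14 lay above and 4 below both day 0 libraries. In this list 1 Ddit4 site met the limit through day 3 alone and 2 sites through day 0 alone. Of the other 26 sites, 13 lay above and 2 below. Hspa5, the chaperone of the endoplasmic reticulum, had 1448 and 1409 CPM on day 3, against 1996 and 1410 on day 0. The 129 sites of G-quadruplex helicases and binders had a median of 0.23 over sites and 0.14 over their 18 genes. Of these sites, 43 lay above and 9 below. The 52 Polycomb, chromatin and DNA methylation sites had a median of 0.22, with 16 above and 4 below. Jarid2, a cofactor of Polycomb repressive complex 2, had 1178 and 1365 on day 3, against 920 and 1696 on day 0, so its groups overlapped. Ribosomal protein and translation factor genes had 6 of 49 sites above and 11 below, with a median of -0.26. Cytoskeletal, epithelial and adhesion genes had 9 of 44 above and 10 below (-0.10), and immediate early and YAP target genes 2 of 14 above and 4 below (-0.14). Glycolysis and lactate genes had 6 of 19 above and 3 below (0.05). Slc2a1, the glucose transporter GLUT1, had 944 and 1111 on day 3, against 665 and 1061 on day 0, and the pentose phosphate enzyme Tkt had 2152 and 2048 on day 3, against 2595 and 3295 on day 0. Cell cycle genes had 4 of 26 above and 3 below (0.12). The 6 sites of matrix genes had a median of 0.23, the extraembryonic site -0.94 and the 2 neural sites 0.05. The 2 neural sites went opposite ways, 1 with a positive change and 1 below both day 0 libraries. The 2 X-inactivation sites, of Xist and Rlim, had a median of 3.50, which is a description, as the Xist site entered through day 3 alone. The Rlim site had 0.39, and its sign turned with K+ or Li+ coverage alone.

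**Figure D2:**
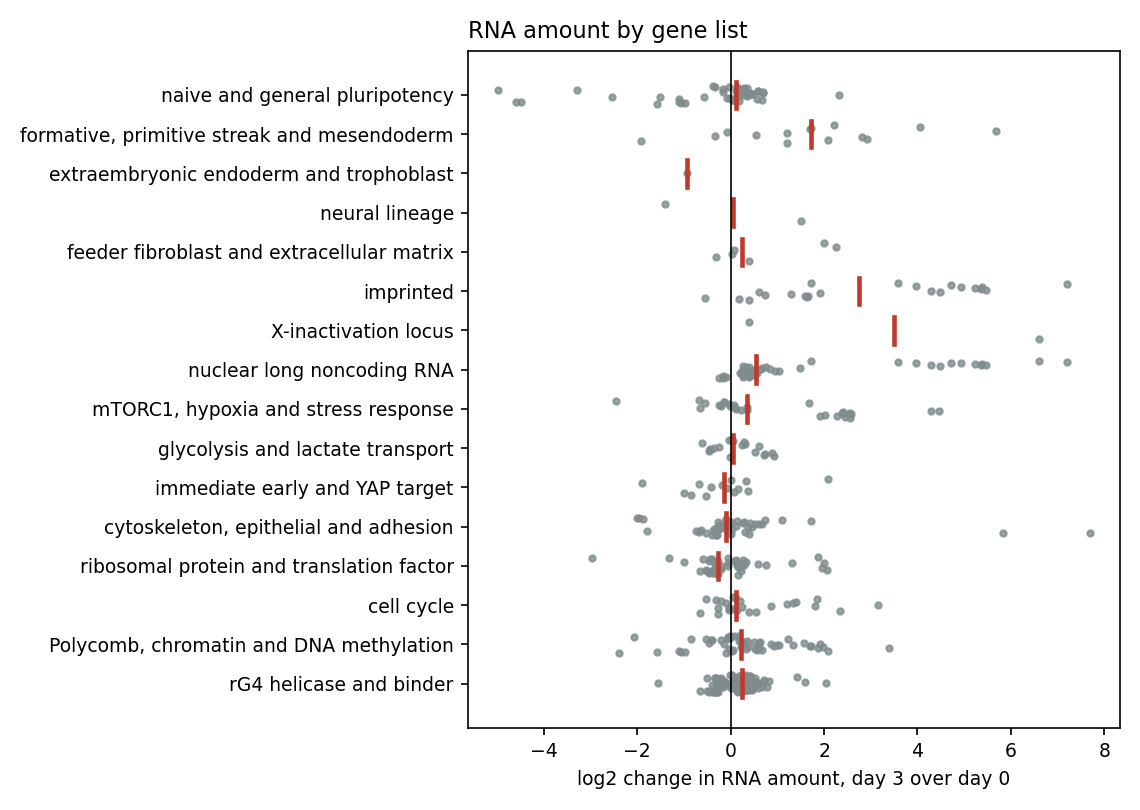
Log2 change in RNA amount, day 3 over day 0, for every tested site of the 16 gene lists. Grey points are sites, which overlap and share reads within a gene, red bars are medians over sites, and the vertical line marks no change. The formative and imprinted lists have medians of 1.72 and 2.75, and the ribosomal list -0.26.

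K+ stops, the reverse transcription ends counted at the motif in the K+ reaction, rose at 1 site, a canonical motif in the 3′ UTR of Ddit4. Of 742 sites with at least 10 K+ stops over the 4 files, 1 was called, which is 0.135% (limma-voom, each library scaled to its own K+ stop total), and 84 sites, 11.3%, had an unadjusted p under 0.05. Day 3 libraries lay above both day 0 libraries at 22.4% of sites and below both at 19.9%. Because each library is set against its own total of K+ stops, a shift shared by all sites does not show in this measure.

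At the Ddit4 motif, 39 and 70 stops were counted in day 3 replicates 1 and 2, against 15 and 4 in day 0 replicates 1 and 2. These are 3827 and 6578 stops per 1000000 in day 3 libraries, against 734 and 674 in day 0 libraries, a log2 change of 2.74 ± 0.47 (SE, n = 2 each; limma-voom adjusted p = 0.0229). The day 3 libraries lay more than 5-fold above the day 0 libraries. RNA at the same motif was 2258 and 2727 CPM on day 3, against 295 and 764 on day 0 (2.44 ± 0.40, adjusted p = 0.101), so the stops differed about as much as the RNA did. The share of K+ reads that stopped there was 18.1% (95% Clopper-Pearson interval 13.2 to 24.0%) and 12.7% (10.0 to 15.8%) on day 3, against 13.9% (7.99 to 21.9%) and 3.33% (0.916 to 8.31%) on day 0. The intervals of day 3 replicate 1, day 3 replicate 2 and day 0 replicate 1 overlapped, and the change of the share did not pass (log2 odds 1.17 ± 0.65, limma adjusted p = 0.453). Day 0 replicate 2 stopped at 16.2% of Li+ reads there, against 3.80, 2.27 and 4.07% in day 3 replicates 1 and 2 and day 0 replicate 1. The call was lost when K+ and Li+ were swapped in day 0 replicate 2 (log2 change 2.19, limma-voom adjusted p = 0.114). It was also lost when no filter beyond 1 stop was set (adjusted p = 0.333) and when day 0 replicate 1 was left out (adjusted p = 0.733) or day 0 replicate 2 was (adjusted p = 0.737), while the log2 change lay between 2.19 and 3.16 in the 11 alternatives run on single sites. All 7 Ddit4 sites tested had more stops on day 3, 6 of them without overlap between the days.

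None of the other sites passed, and their stops are given by values. Malat1 at chr19:5800312-5800329 had 30 and 13 K+ stops in day 3 libraries, against 7 and 3 in day 0 libraries (log2 change 2.23 ± 0.61, limma-voom adjusted p = 0.330). Its RNA amount overlapped between the days, at 1609 and 2071 CPM on day 3, against 952 and 2115 on day 0. Mirg, a noncoding RNA of the imprinted Dlk1-Dio3 region, had 6 and 6 stops on day 3, against 1 and 2 on day 0. The site shared by Sox2 and its overlapping transcript Sox2ot had 14 and 11 on day 3, against 6 and 2 on day 0, and the annotation does not assign its reads to either. Slc16a3, a lactate exporter, had 11 and 10 on day 3, against 4 and 0 on day 0. Slc2a1 had 11 and 8 on day 3, against 4 and 2 on day 0. Lsm14b had 5 and 8 on day 3, against 2 and 1 on day 0. Counts at these sites are small, and differences of this size did not pass at this depth. The sites of Mirg, Sox2, Slc16a3, Slc2a1 and Lsm14b reached the limit of 10 stops through day 3 alone. Part of their difference therefore follows from the limit.

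Of the sites named for fewer stops on day 3, those of Tmsb4x, Zfp57 and Hspg2 and of the ribosomal RNA entry CT010467.1 belong to genes also named for less RNA. Tmsb4x had 0 and 4 K+ stops in day 3 libraries, against 31 and 12 in day 0 libraries. Zfp57 had 0 and 0 on day 3, against 13 and 2 on day 0. Hspg2 had 0 and 0 on day 3, against 15 and 3 on day 0. Tmsb4x, Zfp57 and Hspg2 had no more than 4 stops on day 3, and reached the limit of 10 stops through day 0 alone. CT010467.1 had 245 and 1869 stops on day 3, against 15456 and 1361 on day 0, so its raw counts overlapped. Its stops per 1000000 scaled stops, 24041 and 175630 on day 3 against 756665 and 229387 on day 0, did not. This site (chr17:39847433-39847492) is another than the one named for RNA (chr17:39847668-39847727). Igf2bp1, an oncofetal RNA-binding protein, at chr11:95957237-95957254 had 5 and 8 stops on day 3, against 33 and 24 on day 0. The translation initiation scaffold Eif4g1 had 2 and 9 on day 3, against 43 and 9 on day 0. Sdhc, a subunit of succinate dehydrogenase, had 0 and 1 on day 3, against 17 and 4 on day 0. It too reached the limit of 10 stops through day 0 alone. By list, against 48.9% positive, 22.4% above and 19.9% below over all 742 sites, 28 of 30 ribosomal protein and translation factor sites had a negative change, with 0 above and 9 below both day 0 libraries and a median of -0.82. Of 17 sites in 3 nuclear long noncoding RNAs, 15 were positive and 9 lay above both day 0 libraries (median 1.20 over sites, 1.27 over genes). Of 16 mTORC1 and stress sites 13 were positive and 8 lay above (median 1.42). The median over the 7 genes of this list was 0.26, and the Ddit4 sites described above belong to it. G-quadruplex helicases and binders had 12 of 65 sites above and 15 below (-0.19). No site of these lists passed other than that of Ddit4.

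**Figure D3:**
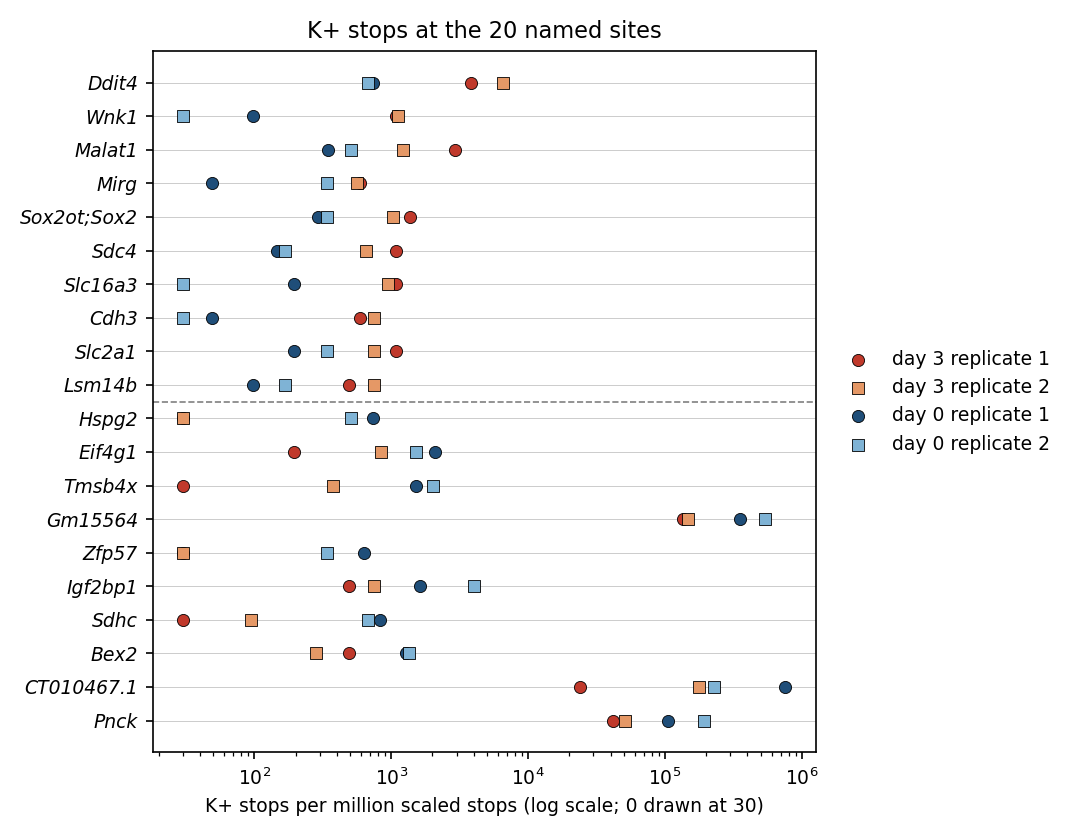
K+ stops per 1000000 scaled stops (log axis, with 0 drawn at 30) at the 20 sites nearest to the threshold, 1 site per gene. Each point is 1 library, with higher sites above the dashed line. Ddit4, at 3827 and 6578 on day 3 against 734 and 674 on day 0, is the only site that passed.

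The K+ stop share, the percentage of K+ reads at a site that stop there, was higher on day 3 at most sites when all sites were counted, and at no single site by the test. Of 958 sites with at least 20 K+ reads in each of the 4 files, 0 (0.0%) were called by limma on the log2 odds, and 131, 13.7%, had an unadjusted p under 0.05. The change was positive at 80.4% of sites, day 3 libraries lay above both day 0 libraries at 362 sites, 37.8%, and below both at 48 sites, 5.01%, and the median log2 change of the odds was 0.81. Outside ribosomal and mitochondrial RNA (949 sites), the median share was 5.41% and 2.94% in day 3 replicates 1 and 2, against 2.42% and 1.94% in day 0 replicates 1 and 2. Day 3 replicate 1 was highest, and the gap between day 3 replicate 2 and day 0 replicate 1 was smaller than that between the day 3 replicates. The mean share over these sites was 7.55% and 4.07% on day 3, against 3.19% and 2.69% on day 0, a difference of 2.87 points (exact permutation test, two-sided, p = 0.333, the smallest that 2 against 2 libraries can give). Summed over all reads the order was not kept, with 9.62% and 4.90% on day 3, against 4.46% and 5.28% on day 0 (exact permutation p = 0.667). Leaving out day 3 replicate 1 gave a median log2 change of 0.47, and leaving out day 3 replicate 2 gave 1.42. Exchanging K+ and Li+ in day 0 replicate 2 gave 0.57. The K+ coverage behind these shares was low, with a median of 37 reads in the shallowest file of a site, and 39.3% of the sites had fewer than 10 K+ stops over the 4 files.

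The sites nearest to the threshold are given by values. Srebf2, the sterol-regulated transcription factor of cholesterol synthesis, had K+ shares of 8.70% and 11.9% in day 3 libraries, against 0.840% and 0% in day 0 libraries (log2 odds 3.79 ± 0.69, limma adjusted p = 0.206). Akt1s1, the mTORC1 inhibitor PRAS40, had 38.1% and 10.7% on day 3, against 1.34% and 0% on day 0 (4.29 ± 0.90, adjusted p = 0.206). Both motifs are canonical 3′ UTR motifs, and as at all sites, the RNA amount there did not pass its test. Lsm14b had 22.7% and 25.0% on day 3, against 6.25% and 2.70% on day 0, and Tubb5, a beta tubulin, had 13.5% and 14.9%, against 4.64% and 3.20%. At both sites the day 3 replicates were close to each other and above both day 0 replicates. The shares of Lsm14b rest on the few K+ stops given above. Tsc22d1 had 27.3% and 11.2% on day 3, against 3.38% and 0% on day 0. The heat shock cochaperone Dnajb1 had 18.5% and 9.52% on day 3, against 0.901% and 0% on day 0. Asna1, Ncapd2, Psap and Igf2bp1 (at chr11:95958307-95958318, another site than the one with fewer stops) had the same order, with shares of 7.19% to 21.2% on day 3, against 0% to 4.41% on day 0. Sites with a lower share on day 3 were fewer. Isyna1, an enzyme of inositol synthesis, had 1.75% and 0% on day 3, against 5.15% and 6.06% on day 0 (-2.28, adjusted p = 0.281). Sdhc had 0% and 0.562% on day 3, against 3.17% and 3.64% on day 0, and the immediate early gene Ier2 0% and 1.69%, against 6.79% and 4.41%.

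The share was higher on day 3 at most sites with less RNA and at most sites with more RNA. Of the 958 sites, 437 had a higher share with less RNA on day 3, 333 a higher share with more RNA, 90 both lower, and 98 a lower share with more RNA. By list, against 80.4% positive and a median of 0.81 over all 958 sites, all 17 sites of nuclear long noncoding RNAs had a positive change of the share (median 1.42), among them all 12 of Malat1 (median 1.45), some of which overlap. These 17 sites come from 4 genes, with a median of 1.28 over genes. Sites of glycolysis and lactate genes were positive at 13 of 15 (0.91), of stress genes at 13 of 17 (0.98), of cytoskeletal genes at 16 of 22 (1.00) and of naive and general pluripotency genes at 14 of 17 (0.82). Those of ribosomal and translation genes were positive at 22 of 28 (0.29) and those of G-quadruplex helicases and binders at 63 of 83 (0.51). Apart from the long noncoding RNAs, these lists had positive sites about as often as all sites together. No site of these lists passed.

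The Li+ reaction gives the level of stops that does not depend on a potassium-held fold, and its median was not higher on day 3. Over 839 sites with at least 20 reads of each cation in all 4 files, the median Li+ share was 2.44% and 2.04% in day 3 replicates 1 and 2, against 2.46% and 3.13% in day 0 replicates 1 and 2. The median K+ share over the same sites was 5.36% and 3.01% on day 3, against 2.36% and 1.96% on day 0. K+ exceeded Li+ at 74.4% and 63.1% of sites in the day 3 libraries, against 45.8% and 29.0% in the day 0 libraries. The median K+ minus Li+ difference of the log2 odds was 1.32 and 0.35 on day 3, against -0.16 and -0.51 on day 0 (exact permutation p = 0.333, the smallest possible). Neither day 0 library showed the K+ excess that the assay uses to mark protected motifs, day 0 replicate 1 having nearly equal shares. Fitted site by site, the change of the K+ over Li+ odds was positive at 76.9% of 848 sites with a median log2 value of 1.10. No site was called by limma (0.0%), 155 sites, 18.3%, had an unadjusted p under 0.05, 43.5% of sites had both day 3 libraries above both day 0 libraries and 4.83% below both. The median was 0.71 and 1.54 when day 3 replicates 1 and 2 were left out in turn, and 0.63 after K+ and Li+ of day 0 replicate 2 were swapped. Leaving out day 0 replicate 1 gave 44 calls, 43 of them higher on day 3, and leaving out each of the other libraries gave 0. A fit of the difference taken within each sample, added after seeing the data, gave 17 calls, all higher on day 3, and a coverage minimum of 10 gave 1.

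**Figure D4:**
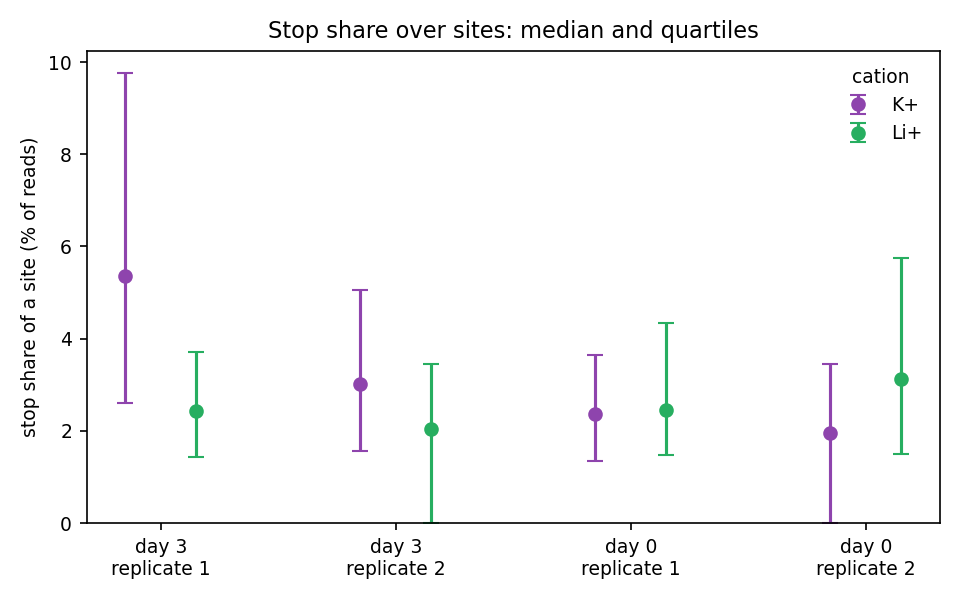
Stop share of a site in percent of its reads, over 839 sites outside ribosomal and mitochondrial RNA with at least 20 reads of each cation in all 4 files. Points are medians and bars run between the quartiles over sites, for K+ and Li+ in each library. K+ lies above Li+ in both day 3 libraries, about level with it in day 0 replicate 1, and under it in day 0 replicate 2.

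Ncapd2, a condensin subunit, came closest to the threshold of this measure. Its K+ share was 21.2% and 8.70% in day 3 libraries, against 2.74% and 0% in day 0 libraries, and its Li+ share was 1.43% and 0% on day 3, against 5.00% and 20.0% on day 0 (log2 change of the odds ratio 5.01 ± 1.02, limma adjusted p = 0.0612). Asna1, which inserts tail-anchored proteins into membranes, had Li+ shares of 4.00% and 1.05% on day 3, against 7.01% and 8.51% on day 0 (3.37 ± 0.69). In both genes K+ and Li+ moved in opposite directions, and the higher Li+ share of day 0 was part of the difference. Mirg had K+ shares of 12% and 8.82% on day 3, against 1.30% and 3.45% on day 0, and Li+ shares of 1.84% and 0% on day 3, against 5.00% and 11.1% on day 0 (4.02). Fgd1 had K+ shares of 9.68% and 11.8% on day 3, against 7.69% and 0% on day 0, and Li+ shares of 2.54% and 0% on day 3, against 19.4% and 22.7% on day 0 (4.64), so that its Li+ shares carried most of the change. At Malat1 chr19:5800312-5800329 the K+ share was 14.0% and 3.41% on day 3, against 1.55% and 1.09% on day 0, and the Li+ share 2.30% and 1.26% on day 3, against 2.37% and 5.12% on day 0. All 12 Malat1 sites had a positive change (median 2.33), 10 of them without overlap. By list, against 76.9% positive, 43.5% above, 4.83% below and a median of 1.10 over all sites, 16 of 17 sites of long noncoding RNAs were positive with 12 above and 0 below (median 2.10), 15 of 16 stress sites (1.66), 15 of 19 cytoskeletal sites (1.91) and 23 of 28 ribosomal sites (0.46). The last 2 of these lists were positive about as often as all sites. The 17 long noncoding sites come from 4 genes, with a median of 1.86 over genes, and include the 12 of Malat1.

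The size of the difference between days varied with motif class. The median log2 change of the K+ share was 1.26 over 153 canonical sites (4 runs of 3 or more guanines with short loops), 1.02 over 107 long-loop sites, 0.79 over 375 bulged sites, 0.56 over 129 other guanine-rich sites, 0.50 over 175 2-quartet sites and 0.21 over 10 potential G-triplex sites. The G-triplex medians of the share were 8.17% and 2.84% on day 3, against 4.28% and 6.36% on day 0, so that the days overlapped. Day 3 libraries lay above both day 0 libraries at 92 of 153 canonical sites and below both at 2. At the 175 2-quartet sites these counts were 51 and 12. Over all 958 sites tested for the share, 37.8% lay above and 5.01% below. Median K+ shares of canonical sites were 9.68% and 5.78% on day 3, against 3.57% and 2.44% on day 0, and those of 2-quartet sites 4.16% and 2.10% on day 3, against 1.86% and 1.94% on day 0. Thus the day 3 replicate 2 median lay well above both day 0 medians for canonical sites and close to them for 2-quartet sites. The odds over Li+ had the same order in the first 5 of these classes, with medians of 1.85, 1.35, 1.10, 0.81 and 0.47. The Li+ shares of the 137 canonical sites measured in both cations were 3.16% and 2.38% on day 3, against 3.61% and 6.12% on day 0, so that the excess of Li+ over K+ in day 0 replicate 2 was also large in this class. The difference between classes was not tested, and the classes share libraries. By transcript region, the median change of the K+ share was 0.94 over 585 sites in 3′ UTRs, 0.48 over 208 coding sites, 0.53 over 28 sites in 5′ UTRs and 1.10 over 33 noncoding sites. RNA amount showed a small spread between regions, with medians of -0.05 in 3′ UTRs, 0.12 in coding sequence, 0.11 in 5′ UTRs and 0.34 in noncoding transcripts.

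**Figure D5:**
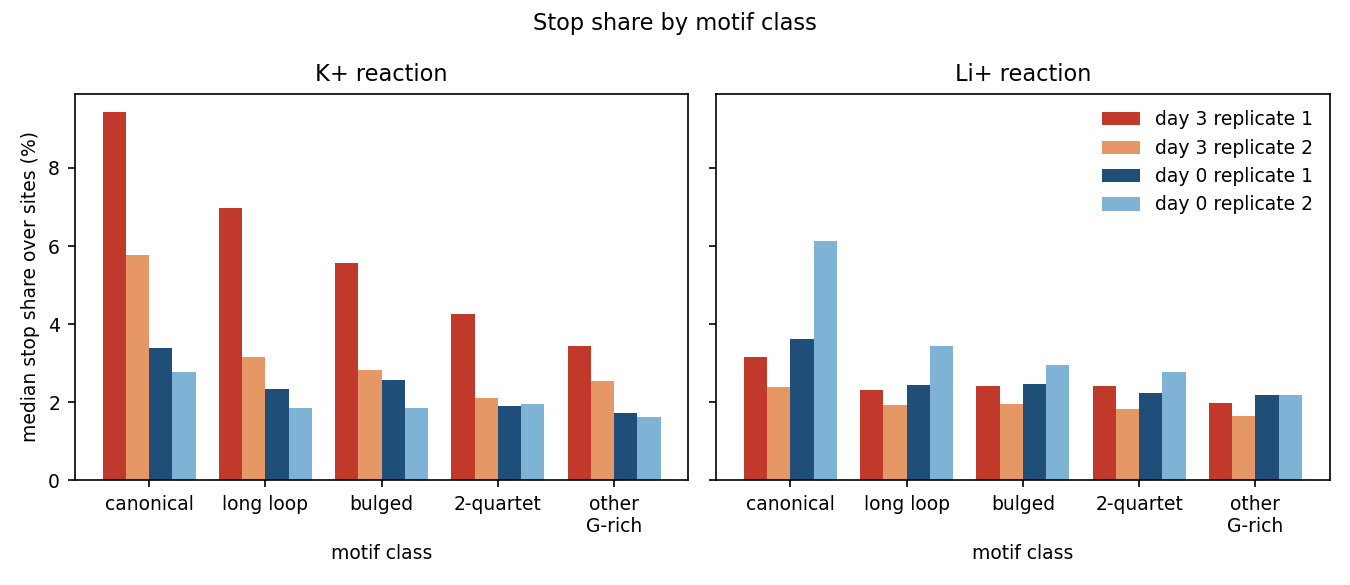
Median stop share over sites by motif class, in percent of reads, for the K+ reaction (left) and the Li+ reaction (right), with 1 bar per library, over sites with at least 20 reads of each cation in all 4 files. In K+ the day 3 bars of canonical sites, 9.43% and 5.78%, stand above the day 0 bars, 3.40% and 2.78%, while in Li+ the day 0 replicate 2 bar is highest in that class at 6.12%.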

How the data were processed

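Per the labels, cells were treated with DMS, and chromatin-bound polyadenylated RNA was fragmented and reverse transcribed in K+ or Li+. The submitters' processing notes name cutadapt, STAR, SAMtools and the builds GRCm38.p6 and mm10. Aligner settings, strand use and the treatment of multiply matching reads were not given in the sources used here. The deposited tables hold, per the file headers, coverage and stops as whole-number read counts per site and cation, with no normalization by the authors. Records run over 2 lines, and their count columns were read as numbers. These were tested with limma in place of a count model. No coverage between 1 and 5 is listed, so a listed 0 can be up to 5 reads of 1 cation or 10 of both, which is the floor per library behind "at least" folds. 2 Xist sites without a value in day 0 replicate 1 were taken as 0. Of 2735 gene symbols, 2678 matched the RefSeq gene table.

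RNA amount and K+ stops were fitted with limma-voom (limma 3.58.1, R 4.3.3) with TMM factors computed without CT010467.1, Gm15564 and the mitochondrial genome. Stop shares and K+ over Li+ odds were fitted with limma on log2 odds (pseudocount 0.5), weighted by a beta-binomial variance. All 6 in-cell libraries, those of day 7 included, shared 1 estimate of the spread. The in vitro tables were not used. P-values were adjusted by Benjamini-Hochberg over all sites of a test. Single library values were compared by an exact permutation test (scipy 1.17.1). Clopper-Pearson intervals and floors cover counting error only, and the labels describe no molecular identifiers. The procedures were tested on simulated data.

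Sites were named as the calls, or the next by p, up to 10 genes per direction and result, 1 site per gene, plus the 2 most-read sites of each list. The rule allowed up to 4 per list, and 2 was set after alternative settings had been run. Otx2, Fgf8, Dnmt3a, H19, Peg3, Tbx3 and Socs3 were added after their values were seen. Members and lists were chosen with earlier results of these data known. Alternatives changed filters, scaling, the cation used, the pseudocount, the coverage minimum, and left out each library. 3 alternatives, equal cation weight and 2 per-sample odds fits, were added after seeing the data. Some sequences are not reported here.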

Additional observations from a re-analysis of the deposited data

Results flagged for a closer look

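Both day 3 libraries and both day 0 libraries lay on opposite sides of 0 in the K+ minus Li+ stop share. Summed over all reads outside ribosomal and mitochondrial RNA, K+ exceeded Li+ by 5.08 points in day 3 replicate 1 and 0.402 points in day 3 replicate 2, against -0.870 points in day 0 replicate 1 and -1.53 points in day 0 replicate 2. The median K+ minus Li+ difference of the log2 odds over sites was 1.32 and 0.35 in day 3 replicates 1 and 2, against -0.16 and -0.51 in day 0 replicates 1 and 2. The opposite signs of the days were not tested as such. Day 3 replicate 1, with the highest value, also drew 82.9% of its reads from Li+, against 33.6% to 51.4% in the other libraries, and the part of this imbalance in the result was not tested.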

How the results depend on the processing

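The direction held at 39 of 54 followed RNA sites, 20 of 20 stop sites, 19 of 20 share sites and 17 of 20 odds sites under every alternative that gave a value. RNA amount gave 5 calls from K+ alone, 12 with 20 reads in all 4 files, 9 with the libraries of these days fitted alone and 10 with cations weighted equally, in Ddit4, Fam25c and Tmsb4x, and 0 from Li+ alone, without the filter, with 1 site per gene, by median-ratio factors or by library totals. Leaving out 1 library gave 0 to 115. K+ stops gave 0 calls without the filter and after K+ and Li+ of day 0 replicate 2 were exchanged, 7 when summed per gene, among them Ddit4, H19, Xist, Tmsb4x and Pnck, and 0 to 9 when 1 library was left out. The Ddit4 stop call had an adjusted p of 0.333 (limma-voom) without the filter. The share gave 0 calls in all settings run, while its median change was 0.47 to 1.42 with 1 library left out. The K+ over Li+ odds gave 1 call at a coverage minimum of 10, 17 with the difference taken per sample and 22 with that and day 0 replicate 2 left out, all higher on day 3, and 0 to 44 with 1 library left out. Deviations from the day mean of same-numbered libraries of these days correlated at 0.31 in RNA amount and between -0.04 and 0.02 in the other measures. With 2 libraries per day, these values cannot decide whether the numbers pair the samples. The replicate block gave 14 RNA calls, 0 stop calls (Ddit4 adjusted p = 0.0587) and 79 odds calls, all higher on day 3.

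Signs that turned belonged to sites that did not pass, and the cause was not tested. With the columns exchanged, the odds change was 0.27 for Fdps, 0.33 for Igf2bp1 and 0.037 for Zfp219, against -2.19, -1.77 and -1.45. RNA of Pou5f1 was 0.13 from K+ alone, 0.032 with 20 reads in all files, 0.074 with 1 site per gene, 0.079 by totals and 0.13 with equal cations, and RNA of Pfkl 0.029, 0.067, 0.078 and 0.0041 under the last 4 of these. Rlim was -1.06 from K+, -0.97 from Li+ and -0.27 with equal cations. Serpinh1 was -0.16 from K+, -0.15 from Li+, -0.030 with 20 reads in all files and -0.0031 with these days alone. From Li+ alone Hspa5 was 0.063, Sparc 1.24 and Yap1 -0.089, and from K+ alone Jarid2 was -0.24. Leaving out 1 library gave RNA ranges of -0.45 to 1.48 for Cdk4, -0.11 to 1.35 for Fn1, -0.081 to 0.27 for Hnrnpa2b1, -0.46 to 0.018 for Hspa5, -0.42 to 0.48 for Jarid2, -0.23 to 4.93 for Marcks, -0.34 to 0.94 for Mcm2, -0.17 to 0.82 for Mirg, -0.72 to 0.18 for Ncl, -0.090 to 0.065 for Pfkl, -0.062 to 0.029 for Pou5f1, -0.54 to 0.44 for Serpinh1 and -1.08 to 0.68 for Sparc, and a share range of -3.03 to 0.57 for Anp32e. Of the sites tested for the share, 39.3% had under 10 K+ stops in all.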
